A study of Mus musculus with 6 samples.

Results

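Of the 37 annotated genes of the mouse mitochondrial genome, a selection of 10 is described here: the small and large mitochondrial ribosomal RNAs (mt-Rnr1 and mt-Rnr2) and the mRNAs mt-Nd1, mt-Nd2, mt-Nd4, mt-Co1, mt-Co2, mt-Co3, mt-Cytb and mt-Atp6. They were taken by symbol from the 52249 genes of the deposited count table, and each symbol matched 1 row. Counts were recorded for 7 of the 10, while mt-Co2, mt-Co3 and mt-Atp6 were listed at 0 in every library. The members were chosen by their count values in these same libraries, with the difference between the groups in view, so their values are given as a description, with no test.

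The counts came from 3′ mRNA sequencing of 6 libraries of mouse intestinal organoids (epithelium grown as a self-organizing culture). All 6 carried an Apc knockout, the loss of a tumour suppressor that restrains WNT signalling. Of these, 3 libraries had no further change (control), and 3 were labelled as also overexpressing IGF2BP3, an RNA-binding protein (OE-labelled, OE for overexpression). The promoter and species of the overexpressed gene, the age of the mice and whether each line was 1 clone are not given in the sources used here, and nothing says that the libraries of a group came from separate cultures.

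Mitochondrial DNA is a small circle that is transcribed from both strands into long precursor RNAs. The precursors are cut, mostly at the tRNAs that lie between the genes, into 2 ribosomal RNAs, the tRNAs and the mRNAs for core subunits of the respiratory chain. Most of the mRNAs receive short poly(A) tails, which in several cases complete the stop codon. The ribosomal RNAs, by contrast, carry at most very short tails and form the mitochondrial ribosome together with proteins made from nuclear genes.

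Total counts ran from 2180116 to 2519917 per library. Igf2bp3 itself had at most 1 count in any library, so the counts gave no check of the overexpression label. Apc was counted in every library (148 to 182 counts), and these counts give no check of the knockout label either. The names of the libraries fall into 1 series for each group, and series and group cannot be told apart in what follows. Epithelial markers were present: Krt18 was counted at 1171 ± 20.8 CPM (a count relative to the TMM-scaled library size) in control libraries against 2214 ± 187 CPM in OE-labelled ones (SD, n = 3), the largest difference among the 9 markers. Cdh1 (1388 ± 84.8 and 1274 ± 273 CPM) and Epcam (429.1 ± 1.36 and 452 ± 24.9 CPM) differed between groups by less than the SD of the OE-labelled libraries, and Cdx1 and Krt20 were listed at 0. The 7 fibroblast markers summed to between 0.84 and 2.796 CPM in each library, and the 3 endothelial markers to at most 0.4577 CPM. Among the 5 immune markers Cd68 gave nearly all of a sum between 13.51 and 20.12 CPM, and Cd3e, Cd79a and Lyz2 were at 0.

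All 10 members lie on the plus strand of the mitochondrial chromosome (GRCm38). In genome order they are mt-Rnr1 (chrM:70-1024), mt-Rnr2 (chrM:1094-2675), mt-Nd1 (chrM:2751-3707), mt-Nd2 (chrM:3914-4951), mt-Co1 (chrM:5328-6872), mt-Co2 (chrM:7013-7696), mt-Atp6 (chrM:7927-8607), mt-Co3 (chrM:8607-9390), mt-Nd4 (chrM:10167-11544) and mt-Cytb (chrM:14145-15288). Each is annotated as a single exon. The annotated length of mt-Co3 (784 bases), mt-Nd4 (1378) and mt-Cytb (1144) leaves 1 base after the last whole codon, which is the form of gene whose stop codon the poly(A) tail completes. GC content of the 10 was low and narrow, from 35.4% in mt-Rnr2 to 39.9% in mt-Co1, and adenine made up 29.5% (mt-Co1) to 38.2% (mt-Rnr2) of the bases. Annotated neighbours overlap some members by a few bases, the longest stretch being 43 bases between mt-Atp6 and mt-Atp8.

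Because the 3′ mRNA kit targets the ends of transcripts, the last 100 bases of 6 members are shown, 5′ to 3′, from GENCODE M21 transcripts (GRCm38, DNA letters, plus strand). The counts do not show where within a gene the reads lay, and this was not tested. Capitals mark bases that lie in a stretch of 50 bases also present, letter for letter, in an annotated transcript of a nuclear gene.
mt-Rnr1 (chrM:925-1024): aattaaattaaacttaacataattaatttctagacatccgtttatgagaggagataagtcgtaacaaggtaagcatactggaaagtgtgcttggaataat
mt-Rnr2 (chrM:2576-2675): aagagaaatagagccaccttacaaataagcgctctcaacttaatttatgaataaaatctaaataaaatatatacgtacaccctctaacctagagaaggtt
mt-Nd4 (chrM:11445-11544): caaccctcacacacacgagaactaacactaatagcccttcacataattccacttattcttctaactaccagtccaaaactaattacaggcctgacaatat
mt-Cytb (chrM:15189-15288): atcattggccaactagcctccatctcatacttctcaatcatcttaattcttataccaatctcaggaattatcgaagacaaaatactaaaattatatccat
mt-Co1 (chrM:6773-6872): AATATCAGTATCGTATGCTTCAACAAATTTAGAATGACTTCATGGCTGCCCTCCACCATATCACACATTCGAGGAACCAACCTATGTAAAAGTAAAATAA
mt-Co2 (chrM:7597-7696): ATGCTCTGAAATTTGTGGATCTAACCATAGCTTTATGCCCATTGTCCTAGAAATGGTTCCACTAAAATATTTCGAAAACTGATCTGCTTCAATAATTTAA

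The 3 members without counts were the ones whose sequence is repeated in full, or nearly so, in annotated nuclear pseudogenes. A run of 7 unprocessed pseudogenes on the minus strand of chromosome 1 (chr1:24611535-24616197) follows the order of the mitochondrial genes from mt-Co1 to mt-Nd4. Gm28661 matched mt-Co2 over 681 of its 684 bases, Gm10925 matched mt-Atp6 over 678 of 681 bases and Gm28437 matched mt-Co3 over 783 of 784 bases, each with 0 mismatches. Of the windows of 50 bases in these mitochondrial genes, 100% (mt-Co2), 99.5% (mt-Atp6) and 99.9% (mt-Co3) were found in a nuclear transcript. Gm28661, Gm10925 and Gm28437 themselves had at most 1 count in any library, as had Gm28439, Gm28438 and Gm29216 of the same run.

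Members copied in part were counted. The first 876 of the 1378 bases of mt-Nd4 are repeated without a mismatch in Gm28439, whereas none of the windows in its last 100 bases was shared. For mt-Co1 it is the last 492 of 1545 bases that match Gm29216, with 6 mismatches, all close to the start of the pseudogene. Sharing was not confined to this end: windows found in any annotated nuclear transcript covered 1157 bases of mt-Co1. The start of Gm29216 is shown for both genes, with differing bases in capitals.
mt-Co1 (bases 1054 to 1093, chrM:6381-6420, plus strand): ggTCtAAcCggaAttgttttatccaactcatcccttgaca
Gm29216 (bases 1 to 40, chr1:24616158-24616197, minus strand): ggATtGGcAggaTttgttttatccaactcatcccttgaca

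From the last 100 bases of mt-Co1, 51 of 51 windows were shared, against 3 of 51 for mt-Nd2 and 0 for mt-Rnr1, mt-Rnr2, mt-Nd1, mt-Nd4 and mt-Cytb. Among the 5 member mRNAs with counts, mt-Co1 had the lowest level. Of the mRNAs that are no members, mt-Nd5 and mt-Nd6 were lower still (1033 and 19.65 CPM in control libraries) with 0 of 51 end windows shared. Also lower were mt-Nd3 (10.44 CPM in control libraries) and mt-Nd4l (listed at 0), each with 48 of 51 end windows shared, and mt-Atp8 (listed at 0) with 0 of 51 shared. The sources used here do not state how reads with several matching positions were treated, and the part of the copies in the zeros and in the level of mt-Co1 was not tested. A count of 0 allows up to 3 counts, or 1.19 to 1.38 CPM of a library's total, among reads that the counting assigned to the gene (counting error only). How much mt-Co2, mt-Co3 or mt-Atp6 RNA the organoids held cannot be read from these zeros.

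**Figure D1:**
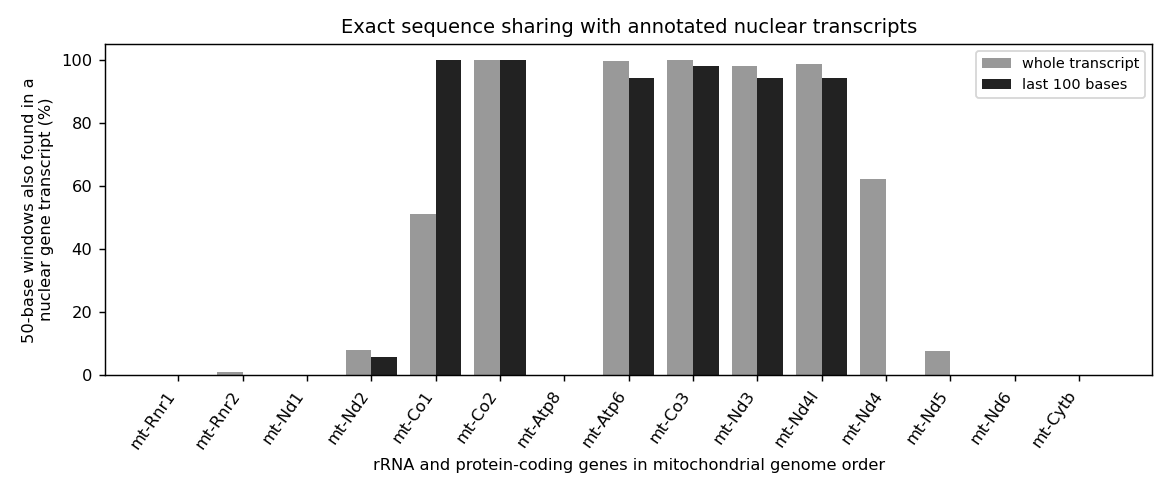
Share of 50-base windows (%) of each mitochondrial rRNA and protein-coding gene that occurs letter for letter in an annotated transcript of a nuclear gene, over the whole transcript (grey bars) and over its last 100 bases (black bars). Genes are in genome order; mt-Co2, mt-Atp6 and mt-Co3 reach 99.5% to 100% over the whole transcript, and mt-Co1 has 51 of 51 windows of its end shared.

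The ribosomal RNAs were the most abundant mitochondrial transcripts in every library, and both were lower in OE-labelled libraries. mt-Rnr2, the RNA of the large mitochondrial ribosomal subunit, was counted at 56930, 57640 and 60270 CPM in the control libraries and at 25460, 24060 and 25050 CPM in the OE-labelled libraries (replicates 1, 2 and 3). No control value came near an OE-labelled one, and the replicates of each group lay close together. The control mean was 2.34-fold the OE-labelled mean, a log2 fold change of -1.23 (SE 0.08).

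mt-Rnr1, the RNA of the small subunit, was counted at 34130, 33660 and 35240 CPM in the controls, against 17960, 14230 and 12760 CPM in the OE-labelled libraries. The groups were again well apart, but OE-labelled replicate 1 was the highest of its group and the spread was wider than in control, with a coefficient of variation of 17.9% against 2.35%. The log2 fold change was -1.2 (SE 0.11), close to that of mt-Rnr2. Summed, the pair gave 92620 ± 2500 CPM in the controls, against 39840 ± 3110 CPM in the OE-labelled libraries (SD, n = 3). Within control libraries, mt-Rnr2 had 1.67, 1.71 and 1.71 counts for each count of mt-Rnr1. In OE-labelled libraries this ratio was 1.42, 1.69 and 1.96, around the same mean (1.69) with a wider spread.

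**Figure D2:**
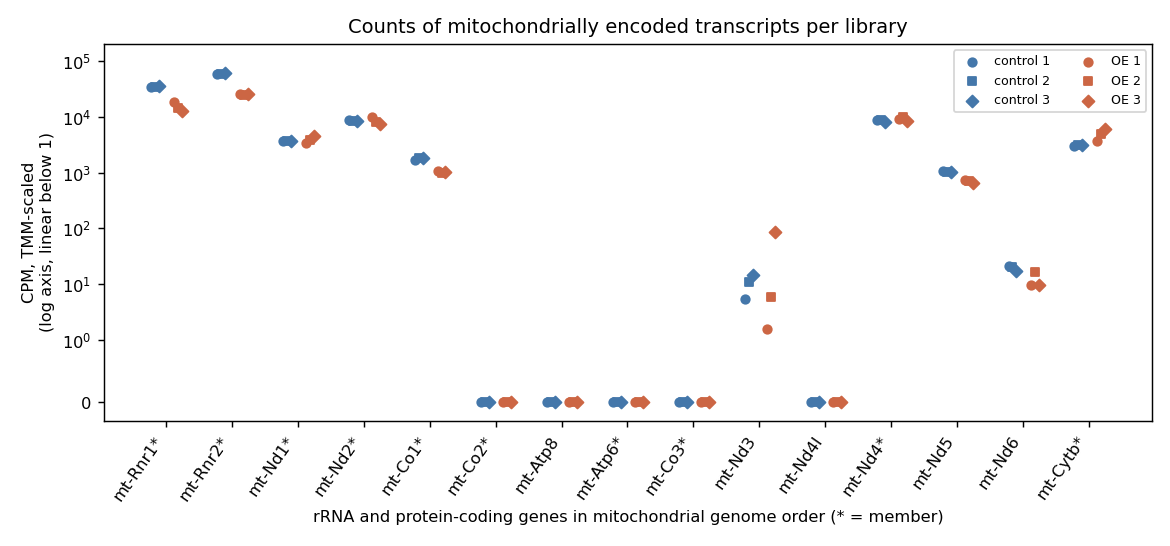
TMM-scaled CPM (log axis, linear below 1) of the 15 mitochondrial rRNA and protein-coding genes in genome order, with 1 point per library (blue control, orange OE-labelled, symbols for replicates). Members carry an asterisk; mt-Rnr1, mt-Rnr2, mt-Co1, mt-Nd5 and mt-Nd6 are lower in all OE-labelled libraries, mt-Cytb is higher, and mt-Co2, mt-Atp6 and mt-Co3 sit at 0.

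The 3 member mRNAs for subunits of complex I, the NADH dehydrogenase that feeds electrons into the chain, overlapped between the groups. Of the other complex I mRNAs, mt-Nd5 and mt-Nd6 had lower values in all OE-labelled libraries (log2 fold changes -0.57 and -0.7, described further on). mt-Nd1 was counted at 3728, 3696 and 3615 CPM in the controls, against 3402, 3881 and 4463 CPM in the OE-labelled libraries. The control values lay inside the OE-labelled range, and the log2 fold change was 0.09 (SE 0.1). For mt-Nd2 the values were 8831, 8278 and 8262 CPM in the controls, against 9966, 7947 and 7510 CPM in the OE-labelled libraries. OE-labelled replicate 1 was the highest of the 6 libraries and replicate 3 the lowest, around equal means (log2 fold change 0, SE 0.11).

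mt-Nd4 was counted at 8889, 8769 and 8002 CPM in the controls, against 9215, 9893 and 8442 CPM in the OE-labelled libraries, with overlapping ranges and a log2 fold change of 0.1 (SE 0.09). Together the 3 complex I mRNAs gave 20690 ± 786 CPM in the controls, against 21570 ± 1090 CPM in the OE-labelled libraries (SD, n = 3), a difference smaller than the SD of the OE-labelled group and slightly larger than that of the controls. OE-labelled replicates varied more than control replicates for mt-Nd1 (13.6% against 1.59%) and mt-Nd2 (15.5% against 3.83%), by coefficient of variation.

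mt-Cytb encodes cytochrome b, the only mitochondrially encoded subunit of complex III. It was counted at 2931, 3132 and 3116 CPM in the controls, against 3677, 4884 and 5969 CPM in the OE-labelled libraries. All OE-labelled values lay above all control values, and they differed among themselves more than those of any other counted member, with a coefficient of variation of 23.7%. The OE-labelled level was 1.58-fold that of control, a log2 fold change of 0.66 (SE 0.14), and it was 0.46 without OE-labelled replicate 3.

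mt-Co1 encodes the catalytic subunit of complex IV, cytochrome c oxidase. Its values were 1693, 1785 and 1797 CPM in control libraries against 1081, 997.4 and 1023 CPM in OE-labelled ones. The groups did not overlap and the replicates were tight in both, as for mt-Rnr2. The log2 fold change was -0.77 (SE 0.09), whereas the other 4 member mRNAs with counts overlapped between groups or were higher. Of the remaining complex IV members, mt-Co2 and mt-Co3, and of the ATP synthase member mt-Atp6, no comparison can be made.

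Of the 7 members with counts, 3 were lower in all OE-labelled libraries than in any control library, 1 was higher in all and 3 overlapped. Over all 10687 genes tested, 45.7% had groups whose CPM ranges stayed apart, of which those lower in OE-labelled libraries were 20.4% of all genes and those higher 25.3%.

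The contrast between the 2 kinds of RNA can be read within each library, where it does not depend on scaling between libraries. The control libraries had 3.49, 3.56 and 3.85 rRNA counts for each count of a member mRNA, and the OE-labelled libraries 1.59, 1.39 and 1.38. The groups were far apart compared with their spread. The mean log2 ratio was 1.86 ± 0.08 in control libraries against 0.53 ± 0.12 in OE-labelled ones (SD, n = 3), a difference of -1.33. It lay between -1.39 and -1.28 when single libraries were left out. The mRNA sum was 26070, 25660 and 24790 CPM in control libraries and 27340, 27600 and 27410 CPM in OE-labelled ones. Its ranges did not overlap either, but the difference was small, at 0.11 on the log2 scale against -1.22 for the rRNA sum. The mRNA sum holds 3 mRNAs listed at 0. Most of it came from mt-Nd1, mt-Nd2 and mt-Nd4, with 20690 of 25510 CPM in control libraries and 21570 of 27450 CPM in OE-labelled ones. Within it mt-Co1 (-0.77) and mt-Cytb (0.66) went opposite ways, and mt-Nd5 (-0.57), which is no member, is left out of it. As a share of library counts, the 37 genes of the mitochondrial genome took 11.7% ± 0.202 in control libraries against 6.92% ± 0.23 in OE-labelled ones, and the member mRNAs 2.51% ± 0.0591 and 2.79% ± 0.0409 (SD, n = 3). Fewer cells of a kind and less RNA per cell cannot be told apart in bulk libraries such as these.

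**Figure D3:**
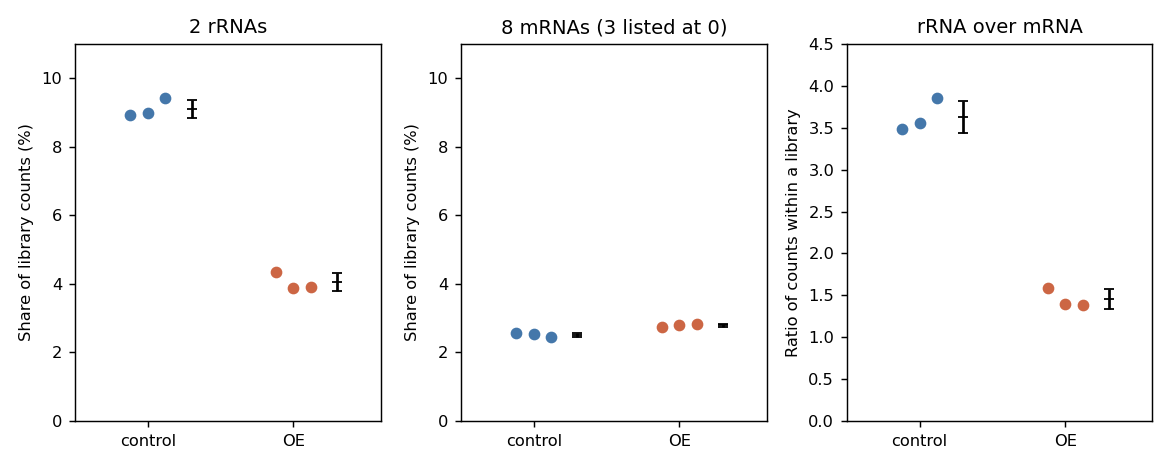
Share of library counts (%) taken by the 2 mitochondrial rRNAs (left) and the 8 member mRNAs (middle), and the ratio of rRNA to mRNA counts within each library (right), with 1 point per library and the mean ± SD of 3 libraries beside it. The ratio lies between 3.49 and 3.85 in control libraries, and between 1.38 and 1.59 in OE-labelled ones.

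Ratios between mRNAs also differed. mt-Cytb had 1.73, 1.75 and 1.73 counts for each count of mt-Co1 in control libraries, and 3.4, 4.9 and 5.83 in OE-labelled libraries. This pair was nearly constant among control libraries and the most unequal of the 5 ratios between single genes that were computed, with a log2 difference of 1.4. The ratio of mt-Cytb to mt-Nd2 overlapped between groups, at 0.332 to 0.378 in control libraries against 0.369, 0.615 and 0.795 in OE-labelled ones.

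Levels of different members were ordered per kilobase of annotated length, although the kit gives a count that does not scale with length. On this scale (CPM per kilobase) control libraries ran from mt-Rnr2 (36840 ± 1110) and mt-Rnr1 (35960 ± 846) through mt-Nd2 (8147 ± 312), mt-Nd4 (6207 ± 349), mt-Nd1 (3845 ± 61) and mt-Cytb (2674 ± 97.9) to mt-Co1 (1138 ± 36.8; SD, n = 3). Only the 2 ribosomal RNAs did not differ beyond their spread on this scale. The order depends on the division by length: in CPM alone, mt-Rnr2 (58280 ± 1760) stood above mt-Rnr1 (34340 ± 808), and mt-Nd4 (8553 ± 481) and mt-Nd2 (8457 ± 324) lay within their spread (SD, n = 3). Per kilobase, in OE-labelled libraries mt-Cytb (4234 ± 1010) stood beside mt-Nd1 (4091 ± 556), and the pairs mt-Rnr2 with mt-Rnr1, mt-Nd2 with mt-Nd4 and mt-Cytb with mt-Nd1 did not differ beyond their spread.

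The size of these differences depended on the sequence composition allowed for. A loess offset for GC content in each library, applied to all genes, gave log2 fold changes of -0.85 for mt-Rnr1, -0.89 for mt-Rnr2 and -0.49 for mt-Co1, and of 0.93 for mt-Cytb. With it mt-Nd1, mt-Nd2 and mt-Nd4 stood at 0.38, 0.35 and 0.44. Scaling on nuclear protein-coding genes alone gave -1.26 for mt-Rnr1, -1.29 for mt-Rnr2 and values between -0.06 and 0.04 for the 3 complex I mRNAs. The sign of mt-Nd2 therefore turned with the scaling, and that of mt-Nd1 when OE-labelled replicate 3 was left out (-0.04), while the signs of mt-Rnr1, mt-Rnr2, mt-Co1 and mt-Cytb held in all 19 alternatives.

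**Figure D4:**
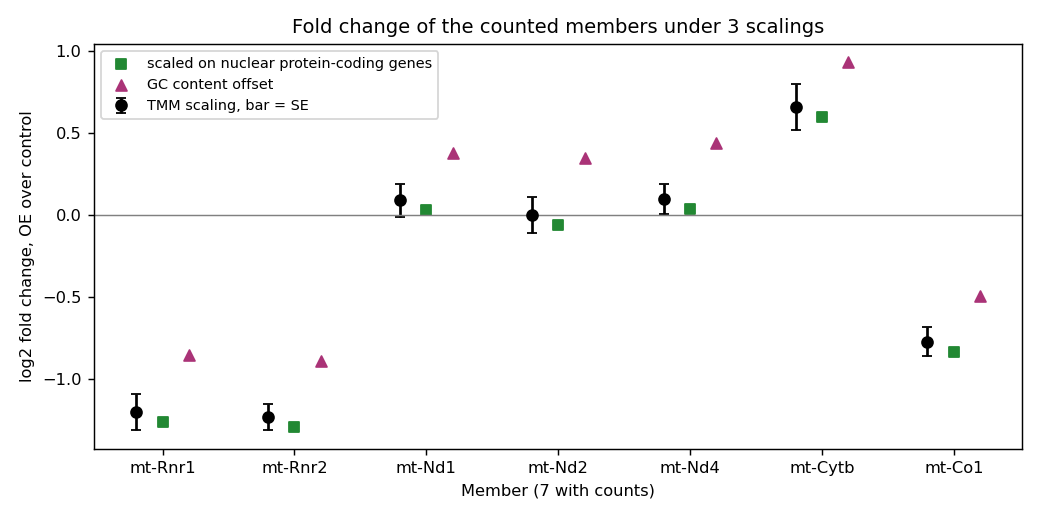
log2 fold change of OE-labelled over control for the 7 members with counts, with TMM scaling (black, bar = SE), with scaling on nuclear protein-coding genes (green squares) and with a GC content offset (purple triangles). Both ribosomal RNAs and mt-Co1 lie below 0 and mt-Cytb above 0 in all 3, while the complex I mRNAs move from near 0 to between 0.35 and 0.44 with the GC offset.

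Of 14 listed nuclear RNAs known to lack a long poly(A) tail, 3 were tested, of which 2 were lower and 1 was higher. Over all tested genes, 12.7% were called lower and 16.5% higher. The list was chosen with earlier results of these data known, so its calls and p-values are a description. CT010467.1, annotated as a nuclear ribosomal RNA gene, was counted at 45390 ± 2310 CPM in the controls, against 15820 ± 3770 CPM in the OE-labelled libraries (SD, n = 3; log2 fold change -1.52, edgeR adjusted p = 3.17e-05). Snord89, a small nucleolar RNA, was lower by the same test (-3.05, edgeR adjusted p = 4.68e-06), and the small nuclear RNA Rn7sk was higher (0.97, edgeR adjusted p = 0.0237). The Rn7sk call did not pass in 5 of 19 alternatives, among them the fits without control replicate 1 or 2 (adjusted p 0.0875 and 0.111), while the other pair of calls held in all 19. The other 11 listed RNAs did not pass the count filter, and the part of tail length in the ribosomal RNA difference was not tested.

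The remaining 27 genes of the mitochondrial genome were mostly too low to test: 10 were listed at 0 in every library and 10 passed the count filter. Of those 10, 0 rose and 4 fell in OE-labelled libraries (edgeR adjusted p below 0.05, which 12.7% of all tested genes passed as lower and 16.5% as higher). mt-Nd5, a complex I mRNA, fell from 1033 ± 43.5 CPM to 697.1 ± 42.1 CPM (SD, n = 3), or by 0.57 on the log2 scale (SE 0.09), with an edgeR adjusted p = 0.001. With the GC offset its log2 fold change was -0.25 and the call was lost (adjusted p 0.156). mt-Nd6, the mRNA encoded on the opposite strand, had 46, 44 and 38 counts in control libraries against 24, 43 and 23 in OE-labelled ones (log2 fold change -0.7, edgeR adjusted p = 0.0529), and it passed as lower in 8 of 19 alternatives, without OE-labelled replicate 2 among them (-1.05, adjusted p 0.0139). The tRNAs for methionine (mt-Tm), leucine (mt-Tl1) and proline (mt-Tp) gave the other 3 calls, at log2 fold changes of -0.89, -1.97 and -1.39. These calls held in every alternative that tested them, but those of mt-Tl1 and mt-Tp rest on few counts. mt-Tl1 had 19, 18 and 12 counts in control libraries against 3, 5 and 6 in OE-labelled ones. For mt-Tp these were 21, 18 and 19 against 7, 8 and 10. The 22 tRNAs summed to 209, 212 and 216 counts in control libraries against 134, 124 and 161 counts in OE-labelled ones. mt-Atp8 and mt-Nd4l, which are not members, were at 0 as well. mt-Atp8 lies between mt-Co2 and mt-Atp6, and mt-Nd4l lies between mt-Nd3 and mt-Nd4, which both had counts.

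The nuclear genes that make, process and use these transcripts were then counted by role, beside a median log2 fold change of 0.041 over all tested genes. Among 14 tested genes of mitochondrial DNA transcription and the nucleoid, 1 rose, 0 fell and the median was -0.22. The alternatives gave 0 to 2 calls in each direction, with 0 higher without OE-labelled replicate 2, 2 higher without OE-labelled replicate 1 and 2 lower without OE-labelled replicate 3. The gene that rose was Polrmt, the mitochondrial RNA polymerase, from a control mean of 11.18 ± 3.14 CPM to 20.39 ± 3.53 CPM (± SD, n = 3; log2 fold change 0.86, edgeR adjusted p = 0.0214), which did not pass in 6 of 19 alternatives (highest adjusted p 0.103, without control replicate 2; also without control replicate 3 or OE-labelled replicate 2). Of 11 genes of mitochondrial RNA processing, 0 rose and 2 fell: Trnt1, which adds the CCA end to tRNAs (-0.92, edgeR adjusted p = 0.00339), and Fastkd1 (-1.27, edgeR adjusted p = 0.00911, lost in 1 of 18 alternatives, without control replicate 3). The median of that list was 0.23, and 1 gene fell without control replicate 3 against 4 without OE-labelled replicate 3, where 1 also rose.

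Genes that stabilise, polyadenylate or degrade mitochondrial mRNAs gave 0 higher and 1 lower call among 11, with a median of 0.13. The call was Grsf1, an RNA-binding protein of mitochondrial RNA granules (-0.41, edgeR adjusted p = 0.0331), and it did not pass in 8 of 19 alternatives (highest adjusted p 0.128), among them each fit without a control library or without OE-labelled replicate 2. Without OE-labelled replicate 3, 1 gene of the list rose and 2 fell. Of 26 tested genes of mitochondrial rRNA modification and ribosome assembly, 3 rose and 3 fell, with a median of 0.09. Library totals without TMM gave 6 higher and 3 lower calls, and a minimum of 10 counts in every library gave 5 higher and 1 lower. Mpv17l2, a ribosome assembly factor, rose by 0.78 on the log2 scale (edgeR adjusted p = 0.00561), with group means of 25.48 ± 1.9 and 43.86 ± 8.09 CPM (SD, n = 3). Ngrn (0.44) and Fastkd2 (0.72), both linked to the large ribosomal RNA, were the others that rose, with calls lost in 6 and 8 of 19 alternatives. Ptcd3, a protein of the small mitochondrial ribosomal subunit, fell by 1.43 on the log2 scale (edgeR adjusted p = 0.00328). Gtpbp10, an assembly GTPase, and Mterf3 fell by 1.57 and 1.29, and these calls were lost in 2 and 6 of 18 alternatives. Leaving out control replicate 1, 2 or 3 ended the call of Mterf3 and of Fastkd2 in each case, that of Ngrn for replicates 1 and 3 and that of Gtpbp10 for replicates 2 and 3 (highest adjusted p 0.133). Without OE-labelled replicate 2 those of Ngrn and Fastkd2 were lost, and without replicate 1 that of Fastkd2. The list had 1 higher call without control replicate 1 or 3 or OE-labelled replicate 2, and 1 lower call without control replicate 2 or 3.

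Among 9 regulators of mitochondrial biogenesis, 1 rose and 0 fell, with a median of -0.05. It was the coactivator Ppargc1a, with 15, 14 and 11 counts in control libraries against 28, 29 and 25 in OE-labelled ones (log2 fold change 0.84, edgeR adjusted p = 0.0294), which did not pass in 7 of 19 alternatives (highest adjusted p 0.181), among them the fits without any 1 of the control libraries and without OE-labelled replicate 1 or 2. In this list 1 gene fell without OE-labelled replicate 1 and 2 fell without replicate 3.

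The nuclear-encoded partners of the mitochondrial mRNAs were counted next, where 16.5% of all tested genes rose and 12.7% fell. In complex I 19 of 36 tested subunits rose and 0 fell (median log2 fold change 0.38), in complex III 5 of 9 rose and 0 fell (0.34), in complex IV 9 of 11 rose and 0 fell (0.71), and in the ATP synthase list 12 of 19 rows rose and 0 fell (0.52). The number that rose was 7 in the ATP synthase list without control replicate 3, and 3 in complex III without any 1 of the control libraries or without OE-labelled replicate 2. The subunits named here had the smallest p of their lists. Ndufa6 of complex I rose from a control mean of 402.3 ± 26.7 CPM to 723.7 ± 17.2 CPM (± SD, n = 3; log2 fold change 0.85, edgeR adjusted p = 0.000129). Beside it mt-Nd1, mt-Nd2 and mt-Nd4 stood at 0.09, 0 and 0.1, and mt-Nd5 and mt-Nd6 at -0.57 and -0.7. With the GC offset mt-Nd1, mt-Nd2 and mt-Nd4 stood at 0.38, 0.35 and 0.44. Over the 19 alternatives Ndufa6 lay between 0.67 and 0.9. Cox4i1 of complex IV rose by 0.84 (edgeR adjusted p = 0.000176), with group means of 279.7 ± 11.5 and 502.2 ± 34.4 CPM (SD, n = 3), while mt-Co1 stood at -0.77. Uqcr10 of complex III rose by 0.95 (edgeR adjusted p = 0.000303) beside 0.66 for mt-Cytb. Atpif1, the inhibitor of the ATP synthase, rose by 1.11 (edgeR adjusted p = 6.18e-05). In complex II, which has no mitochondrially encoded subunit, 1 of 4 rose, Sdhb (0.44, edgeR adjusted p = 0.0267), and the call was lost in 9 of 19 alternatives, among them every fit without a single library other than OE-labelled replicate 3. The epithelial markers were higher as well in 4 of 7 tested, and their part in these counts was not tested.

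**Figure D5:**
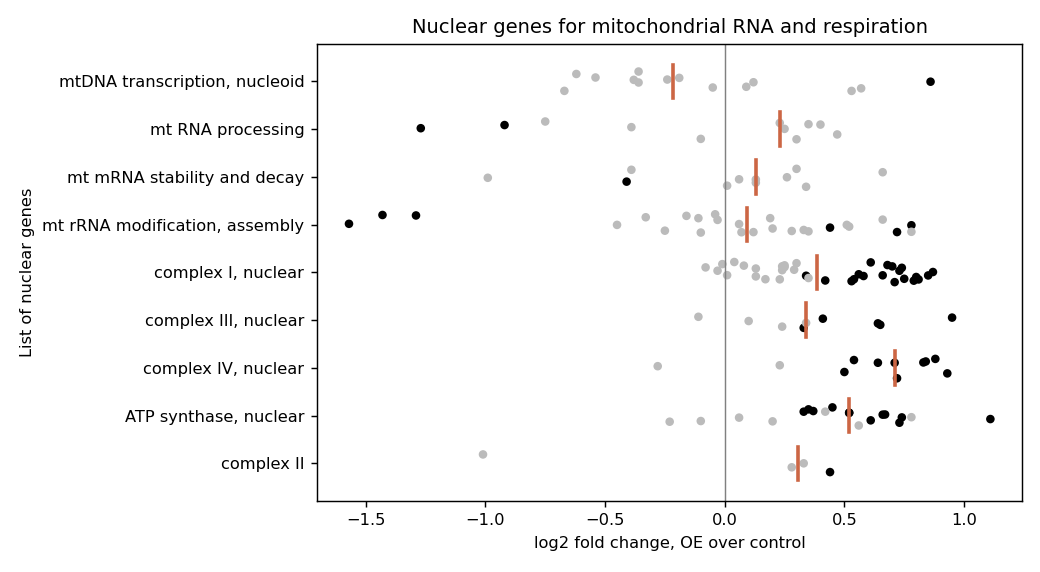
log2 fold change of OE-labelled over control for each tested nuclear gene (points, black where the edgeR adjusted p was below 0.05, grey otherwise), by list, with the list median as an orange line. Called subunits of complexes I, III, IV and the ATP synthase all lie above 0, while the lists for mitochondrial RNA hold calls on both sides or few calls.

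Nuclear genes were also ranked by how closely their profile over the 6 libraries followed the members, as the root mean square difference of centred log2 CPM, over 5122 named genes whose average log2 CPM reached 5. Nearest to the rRNA sum were En1 (0.067), Tulp4 (0.09), Jmjd1c (0.099), Fnbp4 (0.105) and Ercc5 (0.105). En1 was counted at 77.35, 82.02 and 81 CPM in control libraries against 41.85, 33.21 and 34.85 CPM in OE-labelled ones. OE-labelled replicate 1 was the highest of its group, as in the rRNA sum by which En1 was picked. Nearest to the mRNA sum were Cebpz (0.022), Arhgap27 (0.028), Lemd2 (0.029), Spats2 (0.029) and Sec24c (0.03). Cebpz was counted at 117.2, 116 and 113.5 CPM in control libraries against 123.9, 120.3 and 123.9 CPM in OE-labelled ones.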

How the data were processed

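The authors deposited 1 table of unnormalized estimated counts per gene, with 1 column per library and no pooling. STAR, HTSeq and the builds mm10 and GRCm38 are named in the submitters' processing notes, without settings; the treatment of multi-mapping reads and molecular identifiers is not given in the sources used here. Per the labels' protocols, total RNA went into a Lexogen 3′ mRNA kit (forward). Of the deposited counts 2843 were fractional, 0 of them in mitochondrial genes, and all were rounded.

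Columns were matched to samples by library name, and groups and replicates by title. All genes were fitted with edgeR 4.0.16 (R 4.3.3; quasi-likelihood test, filterByExpr, TMM, Benjamini-Hochberg adjustment over 10687 genes), and the code was tested on simulated data. Fold changes are log2, with the standard error as the estimate over the root of the F statistic. The p-values measure the spread between libraries only. Genes were placed with GENCODE M21 (GRCm38; 99.5% of identifiers matched).

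The members, gene lists and tests were chosen with earlier results of these data known. Up to 3 genes per direction were named from each list by smallest p (2 for subunits). Alternatives were other scalings, tests (DESeq2 1.42.0, limma-voom 3.58.1), filters, equal depth, unrounded values, GC offset, the replicate block and each library left out.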

Additional observations from a re-analysis of the deposited data

How the results depend on the processing

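The rRNA to mRNA ratio moved by less than the spread between replicates in all 18 alternatives that gave it. Other scalings, filters, tests and the block alone cannot change a ratio of counts within a library, so they gave no check of it. Its log2 difference (-1.33) was -1.31 with the GC offset, -1.32 at equal depth and -1.39 to -1.28 when single libraries were left out. The rRNA sum (log2 difference -1.22) was -0.89 with the GC offset, alone or with the replicate block, and -1.34 to -1.2 when single libraries were left out. The mRNA sum (0.11) had a spread so small (pooled SD 0.027 on the log2 scale) that most alternatives moved it: 0.06 with DESeq2 size factors and with the DESeq2 test, 0.15 with library totals, 0.05 scaled on nuclear genes, 0.04 scaled on nuclear protein-coding genes, 0.07 without a count filter, and 0.42 with the GC offset, alone or with the block. Leaving out single libraries gave 0.05 to 0.12. limma-voom gives no value for the sums. Of 133 values of single members, 108 stayed within 1 SD. Of the named genes that are no members, mt-Nd3 (1.56) turned, to -0.06 with limma-voom, and lay anywhere from -1.49 to 2.05 without 1 library. The cause of these shifts was not tested.

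Of all genes, 3120 were called, 1767 higher and 1353 lower. Scaling moved the balance: 1473 higher and 1639 lower on nuclear protein-coding genes, 1504 and 1612 on nuclear genes, and 2036 and 1154 with library totals. The DESeq2 test called 1059 higher. Without single libraries, 1748 to 3522 were called, 1033 to 1808 higher and 715 to 1732 lower, and the counts without control replicate 1, 2 or 3 were 1892, 1837 and 1748. A replicate block in the fit gave 3113 called genes. Equally numbered libraries deviated together at correlations of 0.14, 0.04 and 0.16 over 5232 genes, and all 6 libraries correlated best with their own number, a hint from the data and not from the design.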

Other observations

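mt-Nd3, a complex I mRNA that is not among the 10 members, had 12, 24 and 32 counts in the controls, against 4, 15 and 205 in the OE-labelled group. OE-labelled replicate 3 stood apart from the other 5 libraries, and the fitted difference of 1.56 on the log2 scale (SE 0.93), with an edgeR adjusted p = 0.226, rests on that library. Without it the value was -1.49 (edgeR adjusted p = 0.0343). Without OE-labelled replicate 1 it was 2.05 (edgeR adjusted p = 0.0116), so calls in both directions came from leaving out 1 library. The gene matches the pseudogene Gm28438 on chromosome 1 over 345 of its 348 bases with 1 mismatch, T3C (mitochondrial base first, positions counted from 1 at the start of the gene), and Gm28438 had 1 count, in the same library. The starts of both are shown with the differing base in capitals (GRCm38).
mt-Nd3 (chrM:9459-9498, plus strand): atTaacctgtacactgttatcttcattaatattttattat
Gm28438 (chr1:24613080-24613119, minus strand): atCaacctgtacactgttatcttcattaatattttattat

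Among the protein-coding genes from mt-Co1 to mt-Nd4, mt-Atp8 was at 0 in every library without sharing a 50-base window with an annotated nuclear transcript. The same held for the tRNA genes mt-Ts1, mt-Td, mt-Tk and mt-Tg in this stretch. It held outside the stretch too, for mt-Tn, mt-Ty, mt-Th and mt-Ts2, while mt-Tr within it had 2 counts, in control replicate 3. The zeros of tRNA genes were therefore not particular to the stretch. A copy of mt-Atp8 would lie between Gm10925 and Gm28661 in the order of the other genes, and none of the 7 pseudogenes lies there. Gm10925 ends at chr1:24614651 and Gm28661 starts at chr1:24614885, so bases without an annotated pseudogene lie between them. In the mitochondrial genome, mt-Tk and the first part of mt-Atp8 lie between the end of mt-Co2 (chrM:7696) and the start of mt-Atp6 (chrM:7927). Only annotated transcripts were searched, so a copy without annotation was not tested.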
